A study of Mus musculus with 2 samples.

Results

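The genes described here encode the subunits of Mediator and of RNA polymerase II, 44 in all, in interscapular brown adipose tissue (BAT) of Taf7l knockout (KO) and wild-type (WT) mice. Of these 44 names, 32 belong to Mediator and 12 to RNA polymerase II (Pol II). The set was selected on the measured FPKM of these same libraries, in the sense that its names were chosen with the KO and WT values already known, so every value below is a description of the libraries and carries no test. In the mRNA-seq table of 30649 gene names, 43 of the 44 were listed, Polr2l having no entry under its own name. Of the 43, 41 reached 1 FPKM (fragments mapped per kilobase of a transcript, scaled by the size of the library) in at least 1 library and were compared, among 12016 such genes in the whole series.

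Taf7l KO mice lack TAF7L, a paralog of the TFIID subunit TAF7, and were compared with WT mice, both labelled as C57BL/6, with the KO line kept on C57BL/6J by the methods of the study. RNA from 6 KO mice was pooled into 1 library and RNA from 6 WT mice into another, so that there is 1 library per genotype, no spread between animals and no p-value. Both pools are labelled 1 month old in the age field, and the column names of the FPKM values also hold 1m for both. However, the source name of the KO pool says 3 months. An age difference can therefore not be told apart from the genotype by the labels alone. Taf7l itself was listed at 0.00734 FPKM in KO BAT, against 0.0222 FPKM in WT BAT, near 0 in both, so its level in BAT offers no check of the labels.

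Pol II transcribes all protein-coding genes, and its largest subunit carries the catalytic centre together with a long repetitive tail that is phosphorylated as transcription starts. Mediator is the large assembly that bridges activators bound at enhancers and Pol II at promoters. Its head and middle modules contact the polymerase, the tail takes up many of the activators, MED14 forms the backbone that joins them, and a separable kinase module built on CDK8 and cyclin C can block the contact with Pol II. In fat cells, Mediator is known as a partner of nuclear receptors such as PPARG, which bind its MED1 subunit. TAF7L is part of the same step of transcription, the assembly of the machinery on core promoters.

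Promoters of 3 genes are shown because they belong to the member with the highest log2 ratio of KO over WT in Pol II, Polr2a, and to the members with the highest and the lowest in Mediator, Med12 and Med21. Each window runs from 250 bases before the RefSeq start to 50 bases after it, 300 bases on the strand of the gene, in build GRCm38.p6. Polr2a lies at chr11:69758584-69758883 on the minus strand, Med12 at chrX:101273841-101274140 on the plus strand and Med21 at chr6:146642329-146642628 on the plus strand. Capitals mark matches, on either strand, to TATAAA (the TATA box), GGGCGG (the GC box), CCAAT (a common promoter element) and CCGGAA (the core of ETS sites).
Polr2a: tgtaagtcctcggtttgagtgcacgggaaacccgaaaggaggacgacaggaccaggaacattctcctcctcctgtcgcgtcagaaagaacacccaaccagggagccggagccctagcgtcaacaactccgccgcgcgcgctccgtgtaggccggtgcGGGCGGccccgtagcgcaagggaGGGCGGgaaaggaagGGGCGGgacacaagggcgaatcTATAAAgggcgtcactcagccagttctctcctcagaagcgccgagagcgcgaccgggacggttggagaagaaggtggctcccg
Med12: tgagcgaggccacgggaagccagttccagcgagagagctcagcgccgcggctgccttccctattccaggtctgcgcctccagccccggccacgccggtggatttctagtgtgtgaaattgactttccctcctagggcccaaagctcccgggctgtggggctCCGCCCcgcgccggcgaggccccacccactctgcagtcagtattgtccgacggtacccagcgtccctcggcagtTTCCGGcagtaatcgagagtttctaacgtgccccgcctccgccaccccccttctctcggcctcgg
Med21: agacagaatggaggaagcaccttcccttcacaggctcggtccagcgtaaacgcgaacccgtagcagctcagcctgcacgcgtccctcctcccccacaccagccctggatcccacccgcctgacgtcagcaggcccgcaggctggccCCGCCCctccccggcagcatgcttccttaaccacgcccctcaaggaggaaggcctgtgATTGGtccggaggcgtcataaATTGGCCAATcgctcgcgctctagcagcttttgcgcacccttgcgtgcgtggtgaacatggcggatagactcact
In the Polr2a window the TATAAA match began 33 bases before the start, behind GC boxes at 93, 70 and 55 bases before it. The Med12 window had a GC box 89 bases and a CCGGAA match 15 bases before the start, and no TATAAA. In the Med21 window CCAAT matched at 46, 25 and 20 bases before the start, the last pair lying side by side on opposite strands, and a GC box lay 104 bases before it. A match is only a run of letters, and no binding was measured in these samples.

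The libraries differed in depth. Whole-read steps in the low values gave estimates of 78558056 mapped reads for KO BAT and 25982881 for WT BAT, a ratio of 3.02, so WT values set the precision. With these estimates 71.4% of 98 low values in KO BAT and 70.5% of 139 in WT BAT came within 0.05 of a whole read, so the depths are approximate. Brown adipocyte markers were present, with a summed level of 6447 FPKM in KO BAT and 14650 FPKM in WT BAT, Cox8b having the highest level. Of these markers, 6 of 8 were at least 1.5-fold lower in KO BAT, beside 12.4% of all genes compared. All 14 skeletal muscle fibre markers were at least 3-fold higher in KO BAT, beside 1.61% of all genes compared. They ran from 3.31 to 348 FPKM in KO BAT and from 0.106 to 27.6 FPKM in WT BAT. Their sums were 1924 FPKM in KO BAT and 110 FPKM in WT BAT, Acta1 having the highest level. None of either list was at 0. Their part in the values of the Mediator and Pol II genes was not tested, and in bulk tissue fewer cells of a type cannot be told apart from less RNA per cell.

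Of the subunit genes, 28 lay within 1.5-fold between the libraries, and Polr2a had the largest difference. The ratios are log2((KO + 0.1)/(WT + 0.1)) of FPKM summed over the transcripts of a gene, a scale that understates the difference of genes with low levels. Of 41 members compared, 1, Polr2a, was at least 3-fold higher in KO BAT, beside 1.61% of all genes compared. No member was at least 3-fold lower, beside 0.175% of all genes. At 1.5-fold, 7 members (17.1%) were higher, beside 16.2% of all genes, and 6 members (14.6%) were lower, beside 12.4%. These shares lie near the background, so the counts over the members say nothing particular about them. The median log2 ratio of the members was -0.11, against 0.01 for all genes, whose central 80% ran from -0.65 to 0.78. Mediator alone had 6 of 30 genes higher and 5 lower by 1.5-fold with a median of -0.07, and Pol II had 1 of 11 higher and 1 lower with a median of -0.16.

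**Figure D1:**
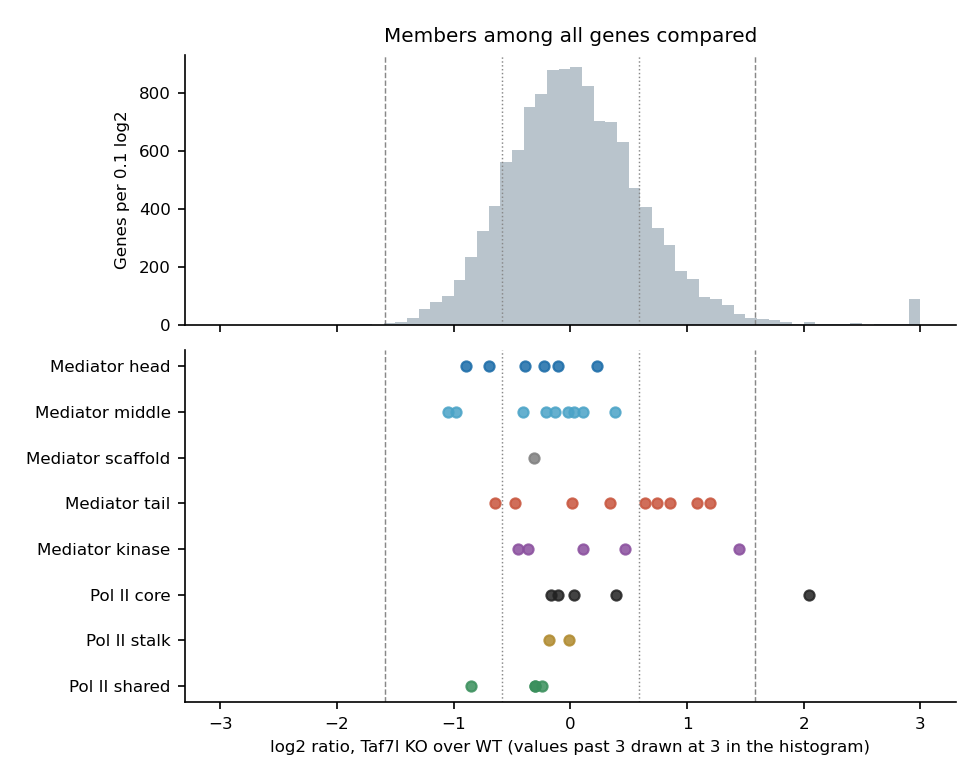
Log2 ratio of KO over WT for all 12016 genes compared (upper panel, number of genes per 0.1 log2, values past 3 drawn at the edge) and for the 41 members by module (lower panel, 1 point per gene). Dotted lines mark 1.5-fold and dashed lines 3-fold, and only Polr2a, at 2.04, lies past a dashed line.

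Polr2a encodes RPB1, the catalytic subunit that carries the repetitive tail. It had 7.90 FPKM in KO BAT, against 1.84 FPKM in WT BAT, a ratio of 4.28 and a log2 ratio of 2.04. By the estimated depths these values rest on 3472 reads in KO BAT and 268 in WT BAT, and the 95% exact binomial interval of the ratio was 3.78 to 4.87. This interval, like all others here, covers counting error only and not the differences between mice. The table lists Polr2a as 2 transcripts of equal span, with KO over WT ratios of 4.31 and 4.25. Overlapping transcripts of a gene share reads, so their ratios are not independent of each other, here and below. No 50-base stretch of its GENCODE M21 transcripts occurs in a transcript of another gene. Corrected for GC content and transcript length its log2 ratio was 1.69, still past 3-fold. The gene lies at chr11:69733997-69758637 in GENCODE M21 on GRCm38.

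Polr2b encodes RPB2, which completes the active centre together with RPB1. It had 8.39 FPKM in KO BAT and 6.36 FPKM in WT BAT, a ratio of 1.32 with an interval of 1.21 to 1.44. The partners of the active centre thus lay at 7.90 and 8.39 FPKM in KO BAT, against 1.84 and 6.36 FPKM in WT BAT. In the WT library Polr2a was the lowest of all 11 Pol II genes listed, and in the KO library it was again the lowest, close to Polr2b.

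The other core genes were at nearly equal levels in both libraries. Polr2c and Polr2j encode RPB3 and RPB11, the pair on which the enzyme is assembled. Polr2c had 25.7 FPKM in KO BAT and 27.7 FPKM in WT BAT (log2 ratio -0.11). Polr2j had 46.9 FPKM in KO BAT and 52.6 FPKM in WT BAT (-0.16). Polr2i, for RPB9, a subunit linked to fidelity of transcription in yeast, had 42.9 FPKM in KO BAT and 42.0 FPKM in WT BAT (0.03). For Polr2c and Polr2j the counting intervals of the ratio included 1. Shared stretches limit some of these values, since 29.8% of the 50-base stretches of Polr2c and 26.3% of those of Polr2i also occur in another gene, for Polr2i in its neighbour Tbcb.

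RPB4 and RPB7 form the stalk, which binds the emerging RNA. Polr2d (RPB4) had 14.5 FPKM in KO BAT and 16.5 FPKM in WT BAT, and Polr2g (RPB7) had 39.0 FPKM in KO BAT and 39.4 FPKM in WT BAT. Their log2 ratios were -0.18 and -0.01, and both intervals included 1.

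Some subunits are shared with the polymerases that make ribosomal and transfer RNA, and the 4 of them listed under their own names had negative log2 ratios, which for Polr2f turned to 0.09 when corrected for GC content and length. Polr2k, which encodes the small zinc-binding subunit RPB12, was the only one past 1.5-fold, with 41.2 FPKM in KO BAT and 74.5 FPKM in WT BAT (log2 ratio -0.85). Its 2 transcripts, of equal span and so not independent, had ratios of 0.549 and 0.565. Of the 50-base stretches of Polr2k, 21.6% occur in other genes. Corrected for GC content and transcript length its log2 ratio was -0.40, inside 1.5-fold. Polr2e (RPB5) had 66.8 FPKM in KO BAT and 82.7 FPKM in WT BAT (-0.31). Polr2f (RPB6) had the highest level of all members, 79.3 FPKM in KO BAT and 93.9 FPKM in WT BAT (-0.24). Its place as the most abundant member was the same in both libraries. Polr2h (RPB8) had 13.3 FPKM in KO BAT and 16.4 FPKM in WT BAT (-0.31). A clone entry that the table describes as a homolog of RPB10, the product of the unlisted Polr2l, had 32.4 FPKM in KO BAT and 29.4 FPKM in WT BAT, and was not counted. Without Polr2a, the 10 other Pol II genes had none higher and 1 lower by 1.5-fold, beside 16.2% and 12.4% of all genes. Their median log2 ratio was -0.17, and 0.06 when corrected for GC content and length.

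**Figure D2:**
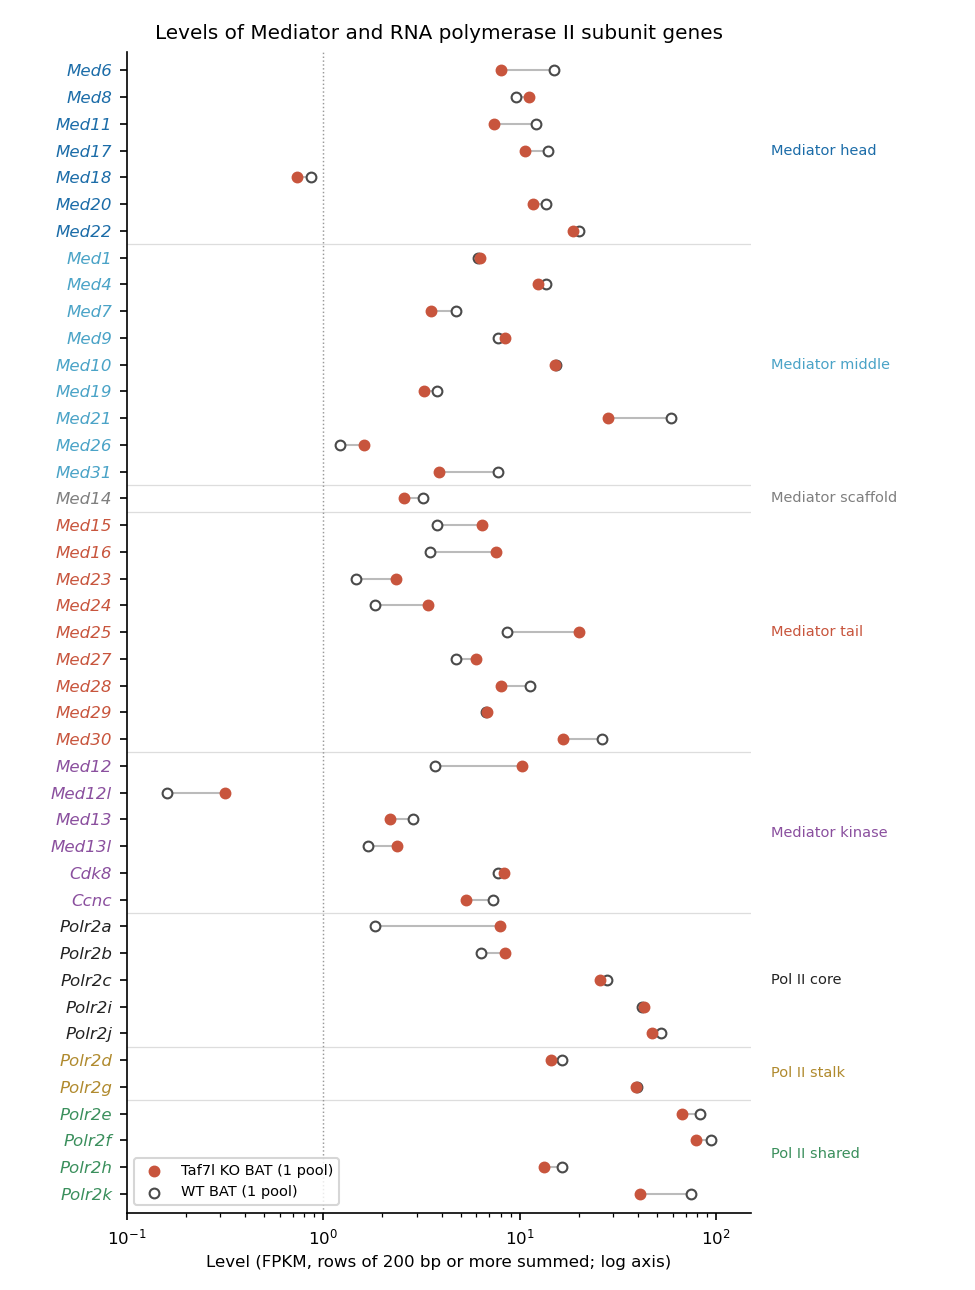
Level in FPKM (log axis) of each of the 43 listed members in KO BAT (filled points) and WT BAT (open points), 1 pooled library each, with genes ordered by module and a dotted line at 1 FPKM. The widest gap is that of Polr2a, 7.90 FPKM in KO BAT and 1.84 FPKM in WT BAT, and Med18 and Med12l lie below 1 FPKM in both.

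In Mediator, the head had 2 of 6 genes compared at least 1.5-fold lower in KO BAT, beside 12.4% of all genes. None was higher, beside 16.2%. Its median log2 ratio was -0.31, and -0.41 when corrected for GC content and length. Med6, one of the subunits conserved from yeast, had 8.02 FPKM in KO BAT and 14.997 FPKM in WT BAT (-0.90). Med11, whose product pairs with MED22, had 7.42 FPKM in KO BAT and 12.1 FPKM in WT BAT (-0.70, interval of the ratio 0.521 to 0.728). Both fell inside 1.5-fold once corrected for GC content and transcript length, at -0.55 and -0.57. Med22 itself had 18.7 FPKM in KO BAT and 20.1 FPKM in WT BAT. Med17, the large subunit around which the head is built, had 10.6 FPKM in KO BAT and 14.0 FPKM in WT BAT (-0.39). The pair MED18 and MED20 forms the movable jaw of the head. Med20 had 11.7 FPKM in KO BAT and 13.7 FPKM in WT BAT. Med18 had 0.734 FPKM in KO BAT and 0.867 FPKM in WT BAT, just under the minimum for comparison. Med8, which anchors that jaw, was the one head gene compared with a positive log2 ratio, 0.23, at 11.2 FPKM in KO BAT and 9.53 FPKM in WT BAT.

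The middle module had 2 of 9 genes at least 1.5-fold lower in KO BAT and none higher, beside 12.4% and 16.2% of all genes. Its median was -0.13, and -0.01 when corrected for GC content and length. Med21, which pairs with MED7 in a hinge of the module, had the lowest log2 ratio of all members. It had 28.3 FPKM in KO BAT and 58.8 FPKM in WT BAT, a log2 ratio of -1.05 with an interval of the ratio of 0.443 to 0.524. No 50-base stretch of its GENCODE M21 transcripts is shared with another gene, and it was the most abundant Mediator gene in both libraries. Its partner Med7 had 3.54 FPKM in KO BAT and 4.73 FPKM in WT BAT (-0.41). Med31, another small conserved subunit, had 3.90 FPKM in KO BAT and 7.80 FPKM in WT BAT (-0.98, interval 0.415 to 0.601). Of its 50-base stretches, 36.5% lie in the overlapping gene 4930563E22Rik, so part of its reads could belong to that gene. Med21 and Med31 stayed past 1.5-fold after the correction for GC content and length, at -0.62 and -0.93.

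The rest of the middle module was nearly level. Med1, which carries the motifs that nuclear receptors bind, had 6.29 FPKM in KO BAT and 6.16 FPKM in WT BAT (0.03). Its main transcript had a ratio of 0.933 and its shorter ones ratios of 1.16 to 1.38, so the sum joins transcripts that differ. Med4 had 12.4 FPKM in KO BAT and 13.6 FPKM in WT BAT, Med9 had 8.40 FPKM in KO BAT and 7.79 FPKM in WT BAT, and Med10 had 15.1 FPKM in KO BAT and 15.4 FPKM in WT BAT. These are structural subunits of the module, and 68.5% of the stretches of Med10 are shared with the gene model Gm26819. Med19, at the hook that holds the kinase module, had 3.25 FPKM in KO BAT and 3.77 FPKM in WT BAT (-0.21). Med26, found in animals but not in yeast and known to recruit elongation factors, had 1.62 FPKM in KO BAT and 1.22 FPKM in WT BAT (0.38), and was the lowest gene above the minimum.

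Med14, the backbone, had 2.58 FPKM in KO BAT and 3.22 FPKM in WT BAT (-0.31). Its 5 transcripts did not move together, the longest having 0.952 FPKM in KO BAT and 1.73 FPKM in WT BAT, a ratio of 0.549, while the others ranged from 0.972 to 1.37. Taken by its highest transcript alone, Med14 had a log2 ratio of -0.80 and would count as 1.5-fold lower.

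The tail was the module with the most genes past 1.5-fold, 5 of 9 higher and 1 lower, beside 16.2% and 12.4% of all genes. Its median log2 ratio was 0.64, and 0.35 when corrected for GC content and length. Med15, Med16 and Med25 lay in the highest of 5 equal groups by GC content, where 35.5% of all genes were higher. Med25, which several activators contact, had the highest value, 19.97 FPKM in KO BAT and 8.66 FPKM in WT BAT, a ratio of 2.31 and a log2 ratio of 1.20. All 6 of its transcripts were higher in KO BAT, by ratios of 1.92 to 2.58. Med16 had 7.58 FPKM in KO BAT and 3.51 FPKM in WT BAT (1.09) without an entry spanning 145 bp, which is described among the closing observations. Its 3 longer transcripts had ratios of 1.72 to 2.27. Med24, which binds next to MED16 and MED23, had 3.42 FPKM in KO BAT and 1.84 FPKM in WT BAT (0.86). Med15, a target of the lipid regulators of the SREBP family, had 6.44 FPKM in KO BAT and 3.82 FPKM in WT BAT (0.74, interval of the ratio 1.49 to 1.91). Med23, a target of ELK1, had 2.34 FPKM in KO BAT and 1.47 FPKM in WT BAT (0.64). Of the genes past 1.5-fold it was nearest the threshold. It was inside 1.5-fold at 0.55 by its highest transcript alone and at 0.44 with a pseudocount of 1 FPKM. The subunits above are the large, activator-facing ones.

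The smaller tail subunits, which link the tail to the rest of Mediator, differed less or the other way. Med27 had 6.01 FPKM in KO BAT and 4.73 FPKM in WT BAT (0.34). Med29 had 6.82 FPKM in KO BAT and 6.75 FPKM in WT BAT (0.01). Med28 had 8.03 FPKM in KO BAT and 11.2 FPKM in WT BAT (-0.48), short of 1.5-fold. Med30 was the tail gene past 1.5-fold in the other direction, with 16.7 FPKM in KO BAT and 26.2 FPKM in WT BAT (-0.65, interval of the ratio 0.573 to 0.706). Corrected for GC content and length, Med23 (0.62) and Med25 (0.69) stayed past 1.5-fold, while Med15 (0.31), Med16 (0.51), Med24 (0.48) and Med30 (-0.31) did not.

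In the kinase module, 1 of 5 genes compared was at least 1.5-fold higher and none lower, beside 16.2% and 12.4% of all genes. Med12, which activates CDK8, had 10.3 FPKM in KO BAT and 3.72 FPKM in WT BAT, a ratio of 2.76 and a log2 ratio of 1.44, the highest in Mediator and the nearest to 3-fold from below. All 4 of its transcripts were higher, by ratios of 2.63 to 3.21, and a transcript spanning 8384 bp made up most of the sum, with 6.86 FPKM in KO BAT and 2.61 FPKM in WT BAT. The pair spanning 23555 bp had ratios of 3.21 and 3.10. The log2 ratio corrected for GC content and length was 0.99. Transcripts with a matched length held only 23.2% of its FPKM in KO BAT and 20.3% in WT BAT, so no interval is given. The gene lies at chrX:101274030-101297465.

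The catalytic pair of the module was not past 1.5-fold. Cdk8, the kinase, had 8.29 FPKM in KO BAT and 7.71 FPKM in WT BAT (0.10). Ccnc, cyclin C, had 5.33 FPKM in KO BAT and 7.30 FPKM in WT BAT (-0.45), and its sign turned after the correction for GC content and length, to 0.38. MED13 joins the module to the rest of Mediator. Med13 had 2.20 FPKM in KO BAT and 2.86 FPKM in WT BAT (-0.37), and its paralog Med13l had 2.38 FPKM in KO BAT and 1.70 FPKM in WT BAT (0.47). Corrected, they were at 0.13 and 0.01. Med12l, the paralog of Med12, stayed low, with 0.316 FPKM in KO BAT and 0.161 FPKM in WT BAT, and was not compared.

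**Figure D3:**
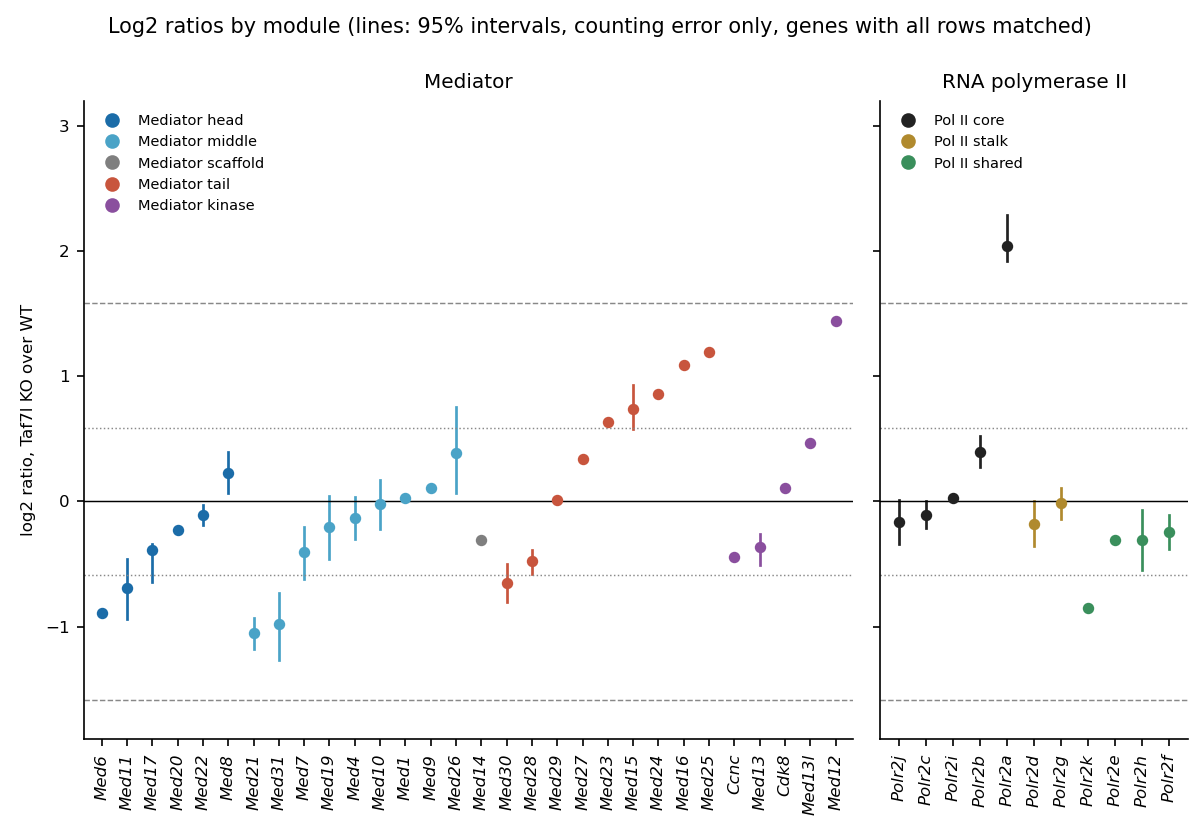
Log2 ratio of KO over WT for the 41 members compared, by module and in rising order within each, with 95% intervals of counting error where reads could be estimated for all transcripts of a gene. Polr2a at 2.04 stands above the dashed 3-fold line, Med12 at 1.44 and Med25 at 1.20 lie between the dotted 1.5-fold and the dashed line, and Med21 at -1.05 is lowest.

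A counting interval could be formed for 35 listed members, 33 of them compared, and it lay above a ratio of 1 in 11, below 1 in 14 and across 1 in 10. Where the interval left out 1, the difference was larger than the estimated counting error, for the transcripts that the interval covers. Some intervals cover only the transcripts with a matched length. That of Med14, 0.565 to 0.732, lies below the ratio of its summed FPKM. Intervals were not counted over all genes, so these counts say nothing particular about the members. With 1 pool per genotype the spread between mice is unknown.

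The direction of the members went with the build of their transcripts. The 7 genes at least 1.5-fold higher had transcripts of 3197 to 6940 nt (median 3693 nt), and the 6 at least 1.5-fold lower had transcripts of 489 to 1161 nt (median 952.5 nt). The ranges of the 2 groups did not overlap. Of all genes, 10.4% of the shortest of 5 equal groups by length were at least 1.5-fold higher and 16.8% lower, and of the longest 21.1% were higher and 10.8% lower. GC content was 47.7% to 60.2% in the higher group and 37.8% to 53.5% in the lower one. The 28 genes between spanned 452 to 10546 nt. Across the 41 members the log2 ratio had a Pearson's r of 0.50 with log2 length (Spearman's rho 0.43) and of 0.48 with GC content (rho 0.52), points that share the same pair of libraries. The sets differed. With GC content r was 0.62 in Mediator (rho 0.66) but 0.14 in Pol II (rho -0.07). With log2 length it was 0.45 in Mediator (rho 0.41) and 0.82 in Pol II (rho 0.57).

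The same trends ran through all genes, for GC content more than for length. Among the 10364 genes compared with a known transcript, r was 0.41 with GC content and 0.11 with log2 length. With genes split into 5 equal groups by GC content, 2.36% of those of lowest GC content were at least 1.5-fold higher and 28.9% lower, and of those of highest GC content 35.5% were higher and 4.10% lower. Corrected for GC content and length, 3 Mediator genes were at least 1.5-fold higher, beside 10.3% of all genes, and 2 were lower, beside 7.06%. After that correction Polr2a was the Pol II gene past 1.5-fold, and the log2 ratios of 12 of the 41 members had turned sign, none of them past 1.5-fold before it.

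**Figure D4:**
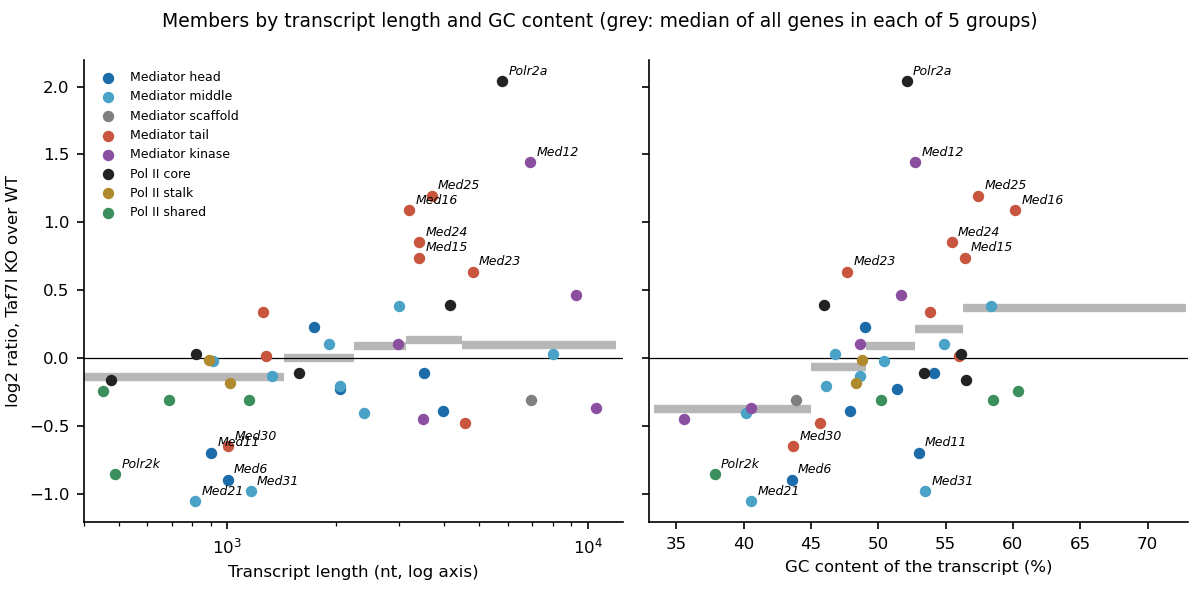
Log2 ratio of KO over WT for the 41 members compared against transcript length (left, nt on a log axis) and transcript GC content (right, percent), with grey bars for the median of all genes in each of 5 equal groups. Members past 1.5-fold are named, the 7 higher ones lie at 3197 nt or longer and the 6 lower ones at 1161 nt or shorter.

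Promoter windows were found for 37 of the 44 members. GC boxes occurred in 25 of the 37 (67.6%), against 35.9% of 27025 promoters of all genes. CCGGAA occurred in 17 members (45.9%), against 15.2%, and CCAAT in 14 (37.8%), against 37.9%. TATAAA occurred in 5 members, against 14.2% of all promoters. Median GC content of the windows was 57.7% in the higher members, 58.8% in the lower and 60.8% in the rest, against 52.7% for all promoters. The promoters of all genes were also not limited to the genes compared. The shares are thus not shown to be particular to the members. The windows of members past 1.5-fold, 5 higher and 4 lower, were too few to relate the letters to direction. Of the 5 members higher by 1.5-fold with a window, 2 had TATAAA, 2 a GC box and 2 CCGGAA, and none had CCAAT. Of the 4 lower ones, 2 had a GC box, 2 CCAAT and 2 CCGGAA, and none had TATAAA.

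Other parts of the transcription machinery held no gene at least 3-fold higher or lower, beside 1.61% and 0.175% of all genes compared. At 1.5-fold, the counts stand beside 16.2% of all genes higher and 12.4% lower. TFIIA, TFIIB, TFIIE and TFIIF, which place Pol II at the start site, had 1 of 7 genes higher and none lower by 1.5-fold, with a median of -0.38 that turned to 0.09 when corrected for GC content and length. Gtf2f1 of TFIIF was highest in ratio, with 15.9 FPKM in KO BAT and 8.85 FPKM in WT BAT (0.83), while Gtf2f2, its partner, was lowest, with 4.93 FPKM in KO BAT and 6.91 FPKM in WT BAT (-0.48). Gtf2a2 had the highest level of this list, 32.4 FPKM in KO BAT and 39.3 FPKM in WT BAT. TFIIH, which opens the promoter, had 1 of 10 higher and 1 lower with a median of -0.13. These were the helicase gene Ercc2 (0.78) and Gtf2h2 (-0.59). Corrected, they were inside 1.5-fold at 0.21 and -0.12, and the median turned to 0.03. Gtf2h5 had the highest level, 39.3 FPKM in KO BAT and 55.7 FPKM in WT BAT.

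Pausing and elongation factors were the list with the largest share past 1.5-fold on one side. Of 25 genes, 9 were higher and 2 lower, beside 16.2% and 12.4% of all genes, with a median of 0.31. With the correction 7 were higher and none lower, beside 10.3% and 7.06% of all genes, with a median of 0.30. Ell2, which speeds elongation, had the lowest ratio, with 6.68 FPKM in KO BAT and 11.95 FPKM in WT BAT (-0.83), and Wdr61 had the highest level, 32.3 FPKM in KO BAT and 31.3 FPKM in WT BAT. CTD phosphatases and assembly factors had 1 of 11 higher, Rpap1 (0.59), and 1 lower, Ssu72 (-0.68), with a median of -0.04. Corrected, Rpap1 turned to -0.06 and Ssu72 was at -0.69. The highest level of the list was that of Grinl1a, 68.3 FPKM in KO BAT and 73.9 FPKM in WT BAT.

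Subunits of the other polymerases and of Integrator spread to both sides. Their counts at 1.5-fold stand beside 16.2% of all genes higher and 12.4% lower, and with the correction beside 10.3% and 7.06%. Pol I and Pol III had 3 of 19 higher and 2 lower with a median of 0.12, and with the correction 1 higher and none lower. Rpo1-2, the table's name for Polr1b, was highest in ratio (0.78) and Twistnb lowest (-0.78), and Rpo1-3, its name for Polr1d, had the highest level, 147 FPKM in KO BAT and 204 FPKM in WT BAT. Integrator, which cleaves RNA at the polymerase, had 2 of 14 higher and 2 lower with a median of 0.10, and with the correction 2 higher and 1 lower. Its ratios ran from Ints2 (-0.69) to Ints9 (0.79), and Ints10 had the highest level, 9.38 FPKM in KO BAT and 8.56 FPKM in WT BAT. Cdk19, the paralog of Cdk8 listed as Cdc2l6, was below the minimum, with 0.780 FPKM in KO BAT and 0.837 FPKM in WT BAT.

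**Figure D5:**
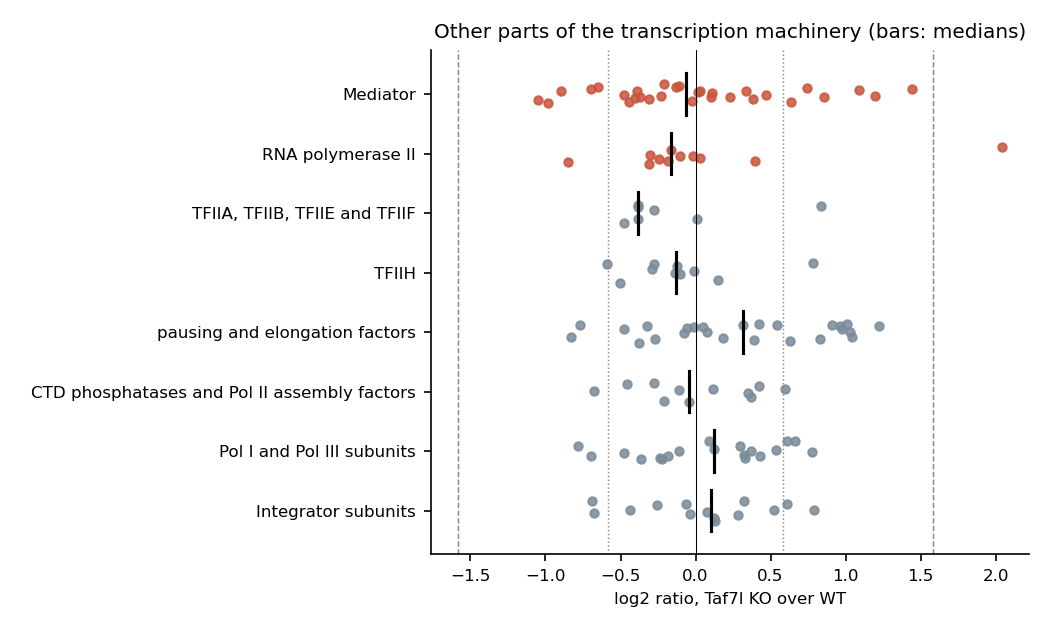
Log2 ratio of KO over WT for the Mediator and Pol II genes (red) and for 6 other lists of transcription machinery (grey), 1 point per gene compared, with black bars at the medians and points spread vertically for legibility. Polr2a, at 2.04, is the one gene past the dashed 3-fold lines, beside 1.61% of all genes compared higher and 0.175% lower. The medians, not corrected for GC content and length, run from -0.38 to 0.31.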

How the data were processed

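mRNA-seq of interscapular BAT was analysed from 1 pooled Taf7l KO library and 1 pooled WT library, 6 mice each. The authors mapped the 50-base reads with TopHat version 1.4.0 and estimated FPKM with cufflinks version 1.3.0, and deposited 1 FPKM value per UCSC transcript and library. The submitters' processing notes name mm10, but the transcript positions in the table started within 1000 bp of those of GRCm38 for only 314 of 7062 genes with 1 transcript, so printed positions are from GENCODE M21 on GRCm38. Whether counting used the strand is not given in the sources used here, so overlapping genes are uncertain.

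FPKM were summed per gene name. The 4162 entries spanning under 200 bp, 19.1% of all FPKM in KO BAT and 18.5% in WT BAT, were left out. A gene was compared if its level reached 1 FPKM in either library, on the scale log2((KO + 0.1)/(WT + 0.1)). Thresholds were 3-fold, the size of change the study used to describe its genes, and 1.5-fold. Depths were estimated from single-exon genes, and reads from transcript length with a fragment length of 200 bp and an SD of 80 bp. They gave exact binomial 95% intervals of the ratio, formed where transcripts with a matched length held at least 50% of the FPKM of a gene. The KO estimate is above the read number in the labels, so reads are approximate. GC content and length were corrected by robust regression in statsmodels 0.14.6, run in Python 3.11.15 beside scipy 1.17.1, numpy 2.4.6 and pandas 2.3.3, and figures were drawn in matplotlib 3.10.9. Promoters are RefSeq windows of GRCm38.p6. The ratios and the correction were run on simulated reads with known fold changes, without a trend and with a GC trend of a form that the correction fits. The depth estimates, the summing over transcripts, the removal of short entries and the intervals were not tested in this way.

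Every member is named, and of each other list of the machinery the gene with the highest mean level and those with the highest and lowest ratio, apart from a gene that is not reported here. The members and lists were chosen with earlier results of these data known. Alternatives covered the pseudocount, the minimum, the scaling, the choice of transcripts, short entries and the correction.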

Additional observations from a re-analysis of the deposited data

Results flagged for a closer look

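Med16 has an entry spanning 145 bp that was left out of its gene value, as were all entries under 200 bp. It stood out as a signal outside the values compared. The entry was listed at 481 FPKM in KO BAT and at 0 in WT BAT, and made up 98.4% of the Med16 total in KO BAT. With it, Med16 would have 488 FPKM in KO BAT and 3.51 FPKM in WT BAT, a log2 ratio of 7.08 in place of 1.09. No other member has an entry under 200 bp.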

How the results depend on the processing

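No paired analysis was possible because each genotype has a single pooled library. No direction of a called member turned in any alternative. With entries under 200 bp kept, 1 Mediator gene, Med16, was at least 3-fold higher. Corrected for GC content and transcript length, 3 Mediator genes were at least 1.5-fold higher and 2 lower, and 0 Pol II genes were 1.5-fold lower. The median log2 ratio of Mediator ranged from -0.11 to 0.01 and that of Pol II from -0.17 to 0.09 over the alternatives. Polr2a, Med12, Med25, Med21 and Med31 were past 1.5-fold in all 9. Med23 was inside it with a pseudocount of 1 FPKM and by its highest transcript. Depth limits the genes of low level most, WT BAT having the fewer reads, and 1 pool per genotype leaves the spread between mice unmeasured.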

Other observations

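Some assemblies that act on Pol II just after initiation can be described in more detail, with genes chosen after their values were seen. All 4 NELF genes, whose products hold paused Pol II, had positive log2 ratios, from 0.31 for Nelfcd (listed as Th1l) to 0.83 for Nelfa (listed as Whsc2). Nelfa had 7.28 FPKM in KO BAT and 4.06 FPKM in WT BAT. Their partner Supt5h had 17.7 FPKM in KO BAT and 9.37 FPKM in WT BAT (0.91), while Supt4a, which pairs with it and is listed as Supt4h1, had 8.31 FPKM in KO BAT and 7.86 FPKM in WT BAT (0.08). Genes of the PAF complex, which travels with elongating Pol II, differed among themselves. Paf1 had 20.9 FPKM in KO BAT and 10.3 FPKM in WT BAT (1.01), and Leo1 had 4.85 FPKM in KO BAT and 2.30 FPKM in WT BAT (1.04). Rtf1, listed as cbp82, was at 0.98 and Wdr61 at 0.05. Ctr9 had 5.72 FPKM in KO BAT and 6.04 FPKM in WT BAT (-0.08), and Cdc73 had 5.07 FPKM in KO BAT and 6.60 FPKM in WT BAT (-0.37). Cdk9, the kinase that releases paused Pol II, had 9.16 FPKM in KO BAT and 9.55 FPKM in WT BAT (-0.06). Tcea1, which rescues stalled Pol II, had 18.3 FPKM in KO BAT and 31.3 FPKM in WT BAT (-0.77). Corrected for GC content and length, Supt5h, Nelfb and Tcea1 were inside 1.5-fold, and Cdc73 turned sign, to 0.49.

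Of the markers of other cell types, 4 of 8 macrophage genes were at least 1.5-fold higher in KO BAT, and the other 4 had log2 ratios below 0. Of all genes, 16.2% were higher and 12.4% lower by 1.5-fold. The macrophage sums were 101 FPKM in KO BAT and 89.4 FPKM in WT BAT, and C1qb, with the highest level, was at -0.02. With the correction for transcript properties 2 stayed higher, beside 10.3% of all genes, Csf1r and C1qc being inside 1.5-fold. Among 7 fibroblast and progenitor genes, 1 was higher and 2 lower by 1.5-fold, with sums of 213 FPKM in KO BAT and 237 FPKM in WT BAT and the highest level in Dcn, and with the correction 2 were higher and none lower. None of 6 endothelial genes was past 1.5-fold, with sums of 131 FPKM in KO BAT and 111 FPKM in WT BAT and the highest level in Cdh5. Of 6 general adipocyte genes, 1 was lower, Fabp4, which also had the highest level and was inside 1.5-fold at -0.43 when corrected. Only 2 T and B cell genes reached 1 FPKM, neither past 1.5-fold, with Cd3g the highest.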
